A study of Homo sapiens with 4 samples.

Results

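Keratins are the intermediate filament proteins of epithelial cells. A type I (acidic) keratin pairs with a type II (basic) keratin, the pairs assemble into filaments that run through the cytoplasm, and desmosomes and hemidesmosomes anchor those filaments at cell borders and at the basement membrane. In the prostate the pair of KRT8 and KRT18 marks the luminal secretory cells and the pair of KRT5 and KRT14 marks the basal cells, whereas hair keratins build the hair shaft and root sheath keratins the layers around it. The keratin genes were taken as all genes of the array annotation whose symbol is KRT followed by a number and at most 1 letter, which leaves out the keratin-associated proteins. There were 45 of them among 17687 named genes, each read by 1 probe set, and they divided into 24 of type I and 21 of type II. By where each is best known, 4 were classed as luminal, 2 as basal, 14 as suprabasal (upper layers of stratified epithelia), 9 as root sheath, 13 as hair and 3 as other epithelial keratins. The luminal class joined KRT7 and KRT19 to KRT8 and KRT18, and only KRT8 and KRT18 were also counted among the luminal prostate markers below.

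Expression was measured on 4 arrays, 1 each for PC-3 cells with shCD267, PC-3 cells with Ctrl, 22Rv1 cells with shCD267 and 22Rv1 cells with Ctrl. PC-3 (PC3 in the labels) is a prostate cancer line from a bone metastasis that lacks androgen receptor activity, and 22Rv1 (22RV1 in the labels) is an androgen receptor positive prostate cancer line derived from a xenograft. The shCD267 cells carried a pLKO.1 lentiviral short hairpin RNA against TNFRSF13B, the receptor also called CD267 or TACI, and the Ctrl cells carried the empty vector. All 4 cultures were stable lines selected with puromycin, the knockdown used a single hairpin sequence, and PC-3 cells grew in F-12 medium whereas 22Rv1 cells grew in RPMI medium, so line and medium cannot be told apart. With 1 array per condition no difference has a replicate check, neither a p-value nor a spread can be given, and precision is limited by how few arrays there are. Because each array read a whole culture, fewer cells of a type and less RNA per cell cannot be told apart.

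All values are log2 expression values, so a difference of 1 is 2-fold, the criterion for a changed gene in the study. The targeted gene TNFRSF13B read 4.85 in PC-3 shCD267 cells and 5.25 in PC-3 Ctrl cells, and 5.63 in 22Rv1 shCD267 cells and 6.08 in 22Rv1 Ctrl cells, a difference of -0.40 for PC-3 and -0.45 for 22Rv1 as deposited. The PC-3 shCD267 value lay below the level taken here as the reference for dim probes on that array, 4.98, so the PC-3 difference is not one between 2 readable values. The 22Rv1 Ctrl array stood apart from the others, with a median over its probe sets of 5.33 against 6.93 to 7.01 on the other 3 arrays. The median of all genes was therefore 1.22 higher with shCD267 in 22Rv1 cells on the deposited scale, and it differed by -0.06 once quantile normalization had given each array 1 common distribution. On those values the difference of TNFRSF13B was -0.43 for PC-3 and -2.20 for 22Rv1. The study reported lower TNFRSF13B protein with the hairpin in both lines on western blots, which these RNA values do not measure. Differences that use the 22Rv1 Ctrl array are given on both scales, and the difference between the lines on the shCD267 arrays does not use it. All 6 genes listed as mesenchymal genes of PC-3 cells were at least 2-fold higher in PC-3 than in 22Rv1 cells on both construct pairs. They include VIM, CAV1, ITGA3 and AXL, and 5 of 6 passed when quantile normalized. The list was made for PC-3 cells with earlier results of these data known, so its count does not test the identity of the lines. FOLH1, the prostate-specific membrane antigen of luminal cells, read 3.96 and 3.42 in PC-3 cells with shCD267 and Ctrl. In 22Rv1 cells with shCD267 and Ctrl it read 15.53 and 14.28. Of 9 luminal markers 4 were lower and 1, HOXB13, was higher in PC-3 than in 22Rv1 cells on both construct pairs, of 7 basal markers 3 were higher and 0 lower (ITGA6, ITGB4 and DST, but neither KRT5 nor KRT14), and of 7 neuroendocrine markers 0 were higher and 2, CHGB and SYP, were lower. When quantile normalized 5 luminal markers were lower and 1 higher, 2 basal markers were higher (without DST), and the neuroendocrine counts were unaltered. Over all genes 15.2% were higher and 4.34% lower in PC-3 than in 22Rv1 cells on both construct pairs as deposited, and 10.1% and 9.55% when quantile normalized.

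As examples of the regulatory sequence ahead of these genes, the promoters of a hair keratin that was higher in PC-3 than in 22Rv1 cells on the Ctrl arrays, of a hair keratin that was higher with shCD267 in 22Rv1 cells, and of the luminal keratin KRT8 are shown, each as 250 bases before and 50 bases after a RefSeq transcription start of GRCh38.p14, all on the minus strand and read 5′ to 3′. Capitals mark a match to TATAAA, the core of the TATA box, or to GGGCGG, the SP1 box, on either strand. In KRT85 (chr12:52367432-52367731) the capitals are the SP1 box read on the opposite strand, in KRT31 (chr17:41397559-41397858) they are the TATA box core, and the KRT8 window (chr12:52926420-52926719) holds neither.
KRT85: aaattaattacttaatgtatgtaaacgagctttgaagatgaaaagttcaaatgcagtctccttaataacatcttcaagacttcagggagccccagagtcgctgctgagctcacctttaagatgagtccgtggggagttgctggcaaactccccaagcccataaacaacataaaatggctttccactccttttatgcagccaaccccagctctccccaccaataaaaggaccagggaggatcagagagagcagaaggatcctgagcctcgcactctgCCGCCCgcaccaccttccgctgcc
KRT31: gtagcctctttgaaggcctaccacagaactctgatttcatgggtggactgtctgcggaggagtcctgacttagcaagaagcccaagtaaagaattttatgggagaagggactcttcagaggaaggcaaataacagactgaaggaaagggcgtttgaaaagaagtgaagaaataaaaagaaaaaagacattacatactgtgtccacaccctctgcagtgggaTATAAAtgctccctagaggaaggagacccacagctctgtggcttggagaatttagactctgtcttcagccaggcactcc
KRT8: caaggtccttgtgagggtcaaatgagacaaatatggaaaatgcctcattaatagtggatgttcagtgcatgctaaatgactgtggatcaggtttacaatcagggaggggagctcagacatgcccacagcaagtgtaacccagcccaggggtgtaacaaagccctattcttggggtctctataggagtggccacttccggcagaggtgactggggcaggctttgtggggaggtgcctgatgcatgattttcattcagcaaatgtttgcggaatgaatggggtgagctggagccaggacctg
Of the 45 keratins, 30 had a promoter in the RefSeq table, and KRT7, KRT18, KRT19 and KRT80 were not among them. Some genes had several windows there, and a gene was counted when any of its windows matched. TATAAA stood in 19 of these 30 genes (63.3%), against 14.0% of 27305 genes with a promoter there. GGGCGG stood in 6 of 30 (20%), against 48.3% of all genes. TGANTCA, the AP-1 site, stood in 0 of 30, against 9.37% of all genes. None of the 3 motifs contains another, and the matches describe letters in a window, not sites in use.

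A keratin was taken as readable on an array when it lay above the 95th percentile of 348 olfactory receptor genes there, receptors of the nasal epithelium that served as a reference for dim probes. That reference was 4.98 on the PC-3 shCD267 array, 4.92 on the PC-3 Ctrl array, 5.30 on the 22Rv1 shCD267 array and 3.91 on the 22Rv1 Ctrl array. Above it lay 16, 17, 14 and 10 of the 45 keratins in the same order of arrays, or 22.2% to 37.8% of them, against 63.4% to 66.4% of all genes. In all, 18 keratins were above the reference on at least 1 array (40%, against 74.6% of all genes) and 27 on none. The 9 keratins that passed on all 4 arrays were KRT7, KRT8, KRT18 and KRT19 of the luminal class and KRT4, KRT16, KRT76, KRT77 and KRT78 of the suprabasal class. KRT71, a keratin of the inner root sheath, and KRT75, a keratin of the companion layer, passed on 1 array each by a narrow margin, KRT71 at 3.95 on the 22Rv1 Ctrl array and KRT75 at 4.99 on the PC-3 Ctrl array. The 27 keratins above it on no array comprised 2 basal, 8 suprabasal, 7 root sheath, 9 hair and 1 other epithelial keratins, and their values ran between 2.15 and 4.78 on the PC-3 shCD267 array and between 2.28 and 3.67 on the 22Rv1 Ctrl array. Both basal keratins were among them. KRT5 read 4.23 and 4.16 in PC-3 cells with shCD267 and Ctrl and 3.81 and 3.09 in 22Rv1 cells with shCD267 and Ctrl. KRT14 read 3.46 and 2.88 in PC-3 cells with shCD267 and Ctrl and 2.99 and 2.39 in 22Rv1 cells with shCD267 and Ctrl. The plot of keratin levels shows the luminal class well above the dim-probe band and many hair and root sheath values within it or below it, although KRT85 reached 6.86 in PC-3 Ctrl cells.

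**Figure D1:**
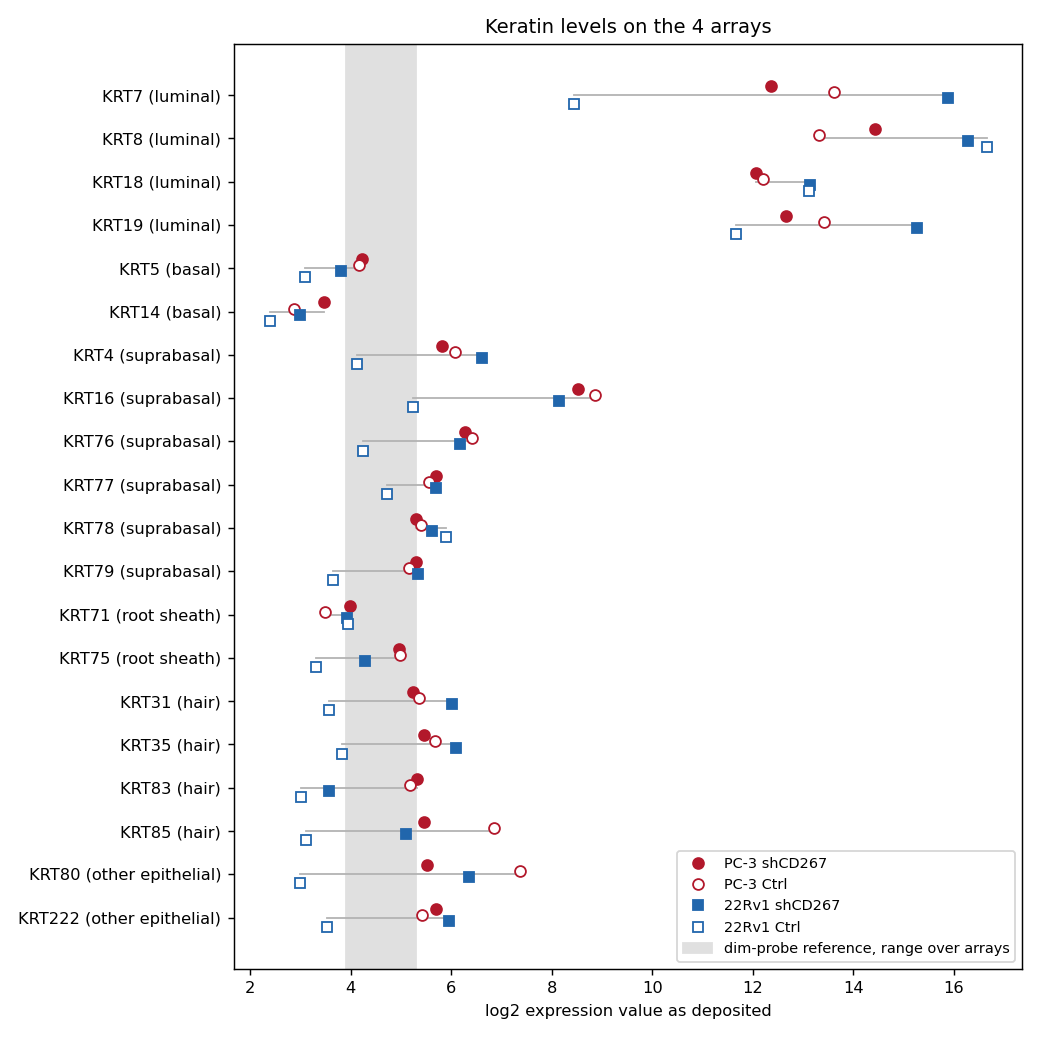
Log2 expression values as deposited of the 18 keratins above the dim-probe reference on at least 1 array and of the basal keratins KRT5 and KRT14, grouped by class on the vertical axis (within a gene the symbols are offset for legibility). Red circles are PC-3 cells, blue squares 22Rv1 cells, filled symbols shCD267 and open symbols Ctrl, and the grey band spans the reference on the 4 arrays, 3.91 to 5.30. KRT7 in 22Rv1 Ctrl cells, at 8.45, lies far to the left of the other KRT7 values.

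The question of the knockdown comparison was which genes change when TNFRSF13B is knocked down in each line. In PC-3 cells the keratins past 2-fold with shCD267 were all type II, which depended on the threshold. KRT80, KRT85, KRT7 and the dim KRT72 were at least 2-fold lower and KRT8 was at least 2-fold higher. These are 4 lower (8.89%) and 1 higher (2.22%) of 45, where 4.69% of all genes were lower and 5.76% higher. On the quantile-normalized values 3 were lower and 1 higher, where 4.25% and 5.87% of all genes were, since KRT72, a root sheath keratin below the reference on every array, was at -0.93. The median keratin differed by -0.15 as deposited, against -0.0019 over all genes, and 0 of 24 type I keratins passed 2-fold in either direction on either scale. At 1.5-fold 11 keratins were lower and 1 higher as deposited, and type I keratins were among the lower ones, KRT19 included. By class the medians were -0.44 for luminal, 0.33 for basal, -0.24 for suprabasal, -0.20 for root sheath, -0.10 for hair and -0.60 for other epithelial keratins.

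KRT80, a type II keratin found near desmosomes in several epithelia, had the largest fall of the 45 in PC-3 cells. It read 5.51 in PC-3 shCD267 cells and 7.37 in PC-3 Ctrl cells, a fall of 3.64-fold. KRT85, a type II keratin of the hair shaft, read 5.46 in PC-3 shCD267 cells and 6.86 in PC-3 Ctrl cells, a difference of -1.39. KRT7, a type II keratin of glandular and ductal epithelia, read 12.37 in PC-3 shCD267 cells and 13.62 in PC-3 Ctrl cells, a difference of -1.25. These 3 genes were above the dim-probe reference on both PC-3 arrays. KRT8 went the other way, reading 14.43 in PC-3 shCD267 cells and 13.33 in PC-3 Ctrl cells, a difference of 1.10. Its type I partner KRT18 read 12.07 in PC-3 shCD267 cells and 12.20 in PC-3 Ctrl cells, a difference of -0.14, so the change of KRT8 exceeded that of KRT18 by 1.24 on the log2 scale (1.42 when quantile normalized). KRT19, the type I keratin of simple epithelia that lacks most of the usual tail, read 12.66 in PC-3 shCD267 cells and 13.41 in PC-3 Ctrl cells, a difference of -0.75 that did not reach 2-fold. Of 9 luminal prostate markers measured, 4 were at least 2-fold higher and 0 lower with shCD267 in PC-3 cells on both scales. These were KRT8 itself, TMPRSS2, ACP3 and STEAP2. The shares of all genes were 5.76% higher and 4.69% lower as deposited, and 5.87% and 4.25% when quantile normalized. TMPRSS2, an androgen-regulated protease, read 7.17 in PC-3 shCD267 cells and 5.87 in PC-3 Ctrl cells, and ACP3, prostatic acid phosphatase, read 5.06 in PC-3 shCD267 cells and 3.87 in PC-3 Ctrl cells. The Ctrl value of ACP3 was below the dim-probe reference and its shCD267 value barely above it, so its count as 2-fold higher rests on a dim probe. The part of these markers in the result for KRT8 was not tested.

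In 22Rv1 cells KRT7 and KRT19 rose strongly with shCD267 while KRT8 and KRT18 did not rise. KRT7 read 15.89 in 22Rv1 shCD267 cells and 8.45 in 22Rv1 Ctrl cells, a difference of 7.44 as deposited and 5.98 when quantile normalized, or 174-fold and 63.1-fold. This was the rise ranked 5 among 17687 genes as deposited and 6 when quantile normalized. KRT19 read 15.26 in 22Rv1 shCD267 cells and 11.67 in 22Rv1 Ctrl cells, a difference of 3.59 as deposited and 2.27 when quantile normalized. Both genes were well above the dim-probe reference on both arrays of the line. KRT8 read 16.29 in 22Rv1 shCD267 cells and 16.65 in 22Rv1 Ctrl cells, a difference of -0.36 as deposited and -0.18 when quantile normalized. KRT18 read 13.13 in 22Rv1 shCD267 cells and 13.12 in 22Rv1 Ctrl cells, a difference of 0.02 as deposited and -1.20 when quantile normalized, so its call depended on the scale. The change of KRT7 exceeded that of KRT18 by 7.43 as deposited and 7.18 when quantile normalized, and it exceeded that of KRT19 by 3.85 and 3.71. Among the 9 luminal prostate markers, 6 passed 2-fold upward and 0 downward with the hairpin in this line as deposited, and 2 were higher, KLK2 and ACP3, and 2 lower, KRT18 and TMPRSS2, when quantile normalized. Of all genes 58.3% were higher and 2.01% lower in that comparison as deposited, and 13.3% and 15.5% when quantile normalized. Their part in the rises of KRT7 and KRT19 was not tested.

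Over all classes, 20 of 45 keratins were at least 2-fold higher and 0 lower with shCD267 in 22Rv1 cells as deposited, where 58.3% of all genes were higher and 2.01% lower. On the quantile-normalized values 8 were higher and 4 lower, or 17.8% and 8.89% of the keratins, where 13.3% of all genes were higher and 15.5% lower. The median keratin differed by 0.97 as deposited, below the 1.22 of all genes, and by 0.07 when quantile normalized, where all genes were at -0.06. The count of keratins that rose thus lay below the share of all genes on the deposited scale and a little above it when quantile normalized.

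Besides KRT7 and KRT19, 5 readable keratins were at least 2-fold higher in 22Rv1 shCD267 cells on both scales: KRT80, KRT16, KRT31, KRT222 and KRT4. KRT80 read 6.35 in 22Rv1 shCD267 cells and 3.0 in 22Rv1 Ctrl cells, a difference of 3.35 as deposited and 2.32 when quantile normalized. Its Ctrl value lay below the dim-probe reference, and against that reference the rise was at least 5.43-fold as deposited and at least 2.17-fold when quantile normalized. KRT16, the type I keratin that epidermis switches on in wounds, read 8.15 in 22Rv1 shCD267 cells and 5.24 in 22Rv1 Ctrl cells, a difference of 2.91 as deposited and 1.30 when quantile normalized. KRT16 is close in sequence to KRT14 and KRT17, and whether its probes also read these transcripts was not tested, although KRT14 itself was dim on every array and KRT17 was not analysed here. The other 3 were nearer the reference. KRT4, a type II keratin of moist stratified epithelia, read 6.61 in 22Rv1 shCD267 cells and 4.13 in 22Rv1 Ctrl cells (2.48 as deposited, 1.10 when quantile normalized). KRT31, a type I keratin of the hair cortex, read 6.02 in 22Rv1 shCD267 cells and 3.58 in 22Rv1 Ctrl cells (2.44 and 1.19). KRT222, a keratin-like type I member, read 5.95 in 22Rv1 shCD267 cells and 3.54 in 22Rv1 Ctrl cells (2.41 and 1.16). For KRT31 and KRT222 the Ctrl value was below the reference, and the bounds were at least 4.31-fold and 4.12-fold as deposited but at least 1.71-fold and 1.63-fold when quantile normalized. The remaining keratin past 2-fold on both scales, the hair keratin KRT33A (4.48 in 22Rv1 shCD267 cells and 2.61 in 22Rv1 Ctrl cells, 1.87 and 1.14), was below the reference on both arrays.

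The hair keratins had the most calls as deposited, 10 higher of 13 with a median of 1.55, but 9 of the 13 were below the reference on all 4 arrays, and when quantile normalized 2 were higher and 1 lower with a median of 0.67. The class medians on the 2 scales were 1.80 and 1.04 for luminal, 0.66 and -0.0032 for basal, 0.73 and 0.0045 for suprabasal, 0.80 and -0.08 for root sheath and 2.41 and 1.16 for other epithelial keratins. The luminal median pools KRT7 and KRT19, which rose, with KRT8 and KRT18, which did not. The quantile-normalized values also held 4 keratins at least 2-fold lower, namely KRT78, KRT71, KRT18 and KRT39, and none of these was 2-fold lower as deposited. KRT78, a type II keratin of stratified epithelia, read 5.61 in 22Rv1 shCD267 cells and 5.90 in 22Rv1 Ctrl cells, a difference of -0.29 as deposited and -2.01 when quantile normalized. Among the other readable members, KRT35, KRT76 and KRT79 passed 2-fold as deposited and not when quantile normalized. KRT35, a type I hair keratin, was the nearest to the threshold of these, at 2.26 as deposited and 0.96 when quantile normalized. KRT76, a keratin of the oral lining, was at 1.92 and 0.53, and KRT79 at 1.68 and 0.43. The plot of changes by class shows the luminal class spread over the widest range in 22Rv1 cells on both scales.

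**Figure D2:**
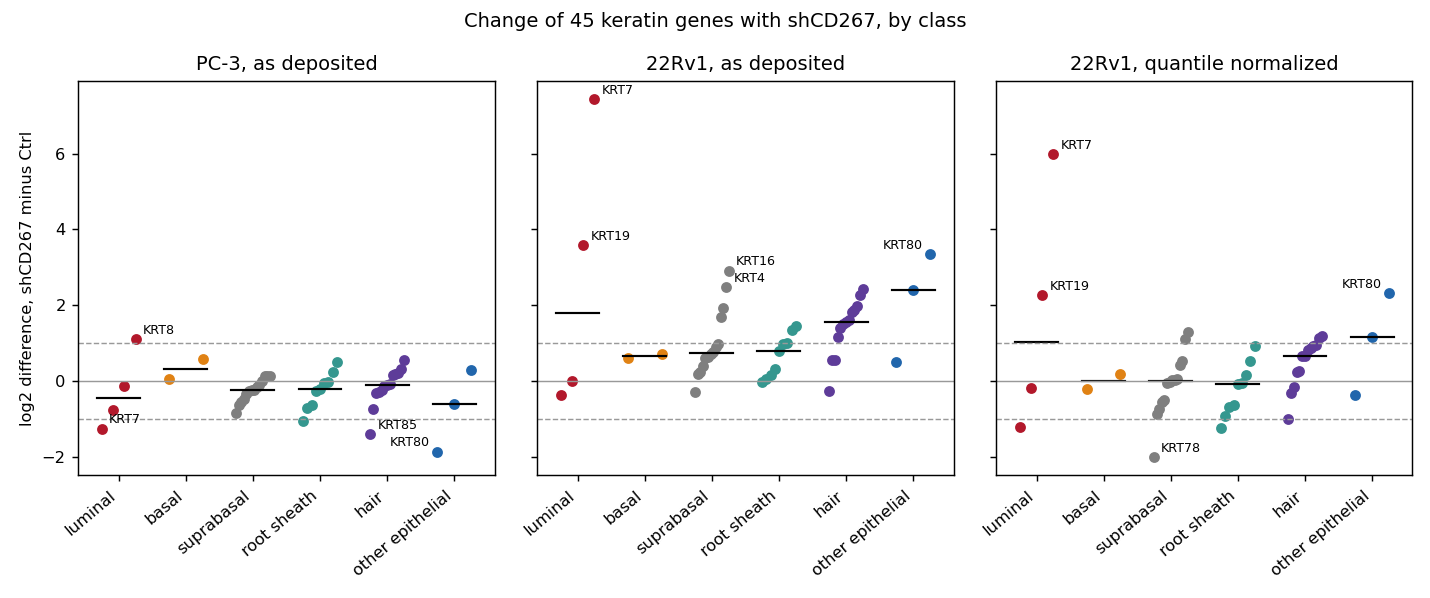
Log2 difference, shCD267 minus Ctrl, of each of the 45 keratins by class, in PC-3 cells as deposited and in 22Rv1 cells as deposited and when quantile normalized. Points are genes in order of their value, black bars the class medians and dashed lines 2-fold. KRT7 stands at 7.44 and 5.98 in the 22Rv1 panels and at -1.25 in the PC-3 panel.

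Some keratins thus changed in opposite directions in the 2 lines. As deposited, KRT7, KRT80 and KRT85 were at least 2-fold lower with shCD267 in PC-3 cells and at least 2-fold higher in 22Rv1 cells, 3 of 45 where 3.56% of all genes did the same. On the quantile-normalized values the pattern held for KRT7 and KRT80, 2 of 45 where 1.63% of all genes showed it, and KRT85 was at 0.92 in 22Rv1 cells, where it was below the dim-probe reference on both arrays. The reverse pattern was found for 0 keratins on both scales, against 0.317% of all genes as deposited and 1.54% when quantile normalized. KRT7 and KRT80 are protein-coding neighbours at 1 end of the type II keratin cluster on chromosome 12, which held 22 of the 45 members, KRT18 included, while 23 type I members lay on chromosome 17. The members that follow them in the cluster did not share the pattern throughout: KRT83, next in order among the members, changed by 0.15 in PC-3 cells and by 0.55 as deposited and -0.31 when quantile normalized in 22Rv1 cells. At the other end of the cluster KRT8 and KRT18 are neighbours, and KRT8 passed 2-fold in PC-3 cells but not KRT18.

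**Figure D3:**
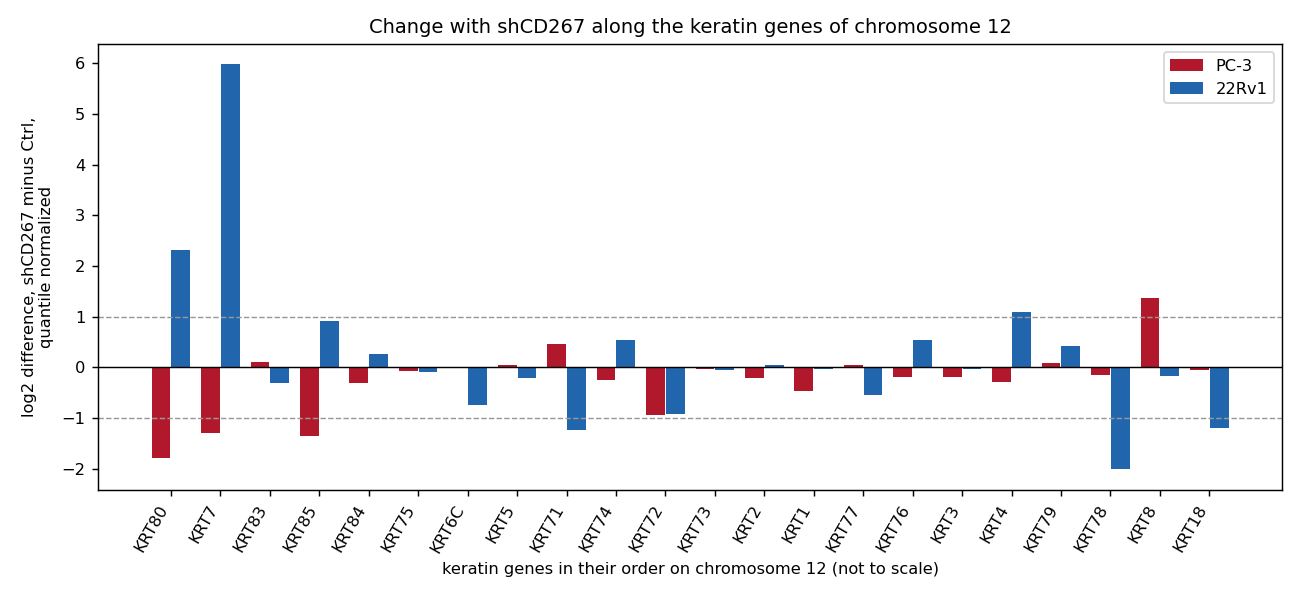
Log2 difference, shCD267 minus Ctrl, when quantile normalized for the 22 keratin genes of chromosome 12 in their order along it, with red bars for PC-3 cells, blue bars for 22Rv1 cells and dashed lines at 2-fold. The neighbours KRT80 and KRT7 are below 0 in PC-3 cells and at 2.32 and 5.98 in 22Rv1 cells.

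Set against 22Rv1, PC-3 cells had lower keratins of the luminal class on the shCD267 arrays, where all 4 were at least 2-fold lower. Over the 45 keratins 4 were lower and 1 higher, where 16.4% of all genes were lower and 17.0% higher, and the 1 that passed outside the luminal class was the hair keratin KRT83. The median keratin differed by -0.14, against -0.03 over all genes, and the luminal median by -2.23. KRT7 was at 12.37 in PC-3 shCD267 cells and 15.89 in 22Rv1 shCD267 cells, a difference of -3.52. The differences of KRT19, KRT8 and KRT18 on these arrays were -2.60, -1.86 and -1.06. On the quantile-normalized values the counts were the same, where 16.5% of all genes were lower and 16.5% higher, and the luminal differences ran between -3.79 and -1.07.

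On the Ctrl arrays the luminal keratins did not lie on 1 side. KRT8 read 13.33 in PC-3 Ctrl cells and 16.65 in 22Rv1 Ctrl cells, a difference of -3.33 as deposited and -3.50 when quantile normalized. KRT7 read 13.62 in PC-3 Ctrl cells and 8.45 in 22Rv1 Ctrl cells, a difference of 5.17 as deposited and 3.49 when quantile normalized. For KRT7 the line with the higher value therefore depended on the construct. KRT18 was at -0.91 as deposited and -2.21 when quantile normalized, and KRT19 at 1.74 and 0.27. As deposited 26 of 45 keratins were higher by at least 2-fold and 1 was lower in PC-3 Ctrl cells, where 55.1% of all genes were higher and 5.96% lower. On the quantile-normalized values 7 were higher and 4 lower, where 19.6% of all genes were higher and 21.5% lower.

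Of the readable keratins, 3 outside the luminal class were at least 2-fold higher in PC-3 Ctrl cells on both scales and not on the shCD267 arrays. KRT80 read 7.37 in PC-3 Ctrl cells and 3.0 in 22Rv1 Ctrl cells, at least 11-fold higher against the dim-probe reference as deposited and at least 4.34-fold when quantile normalized. KRT85 read 6.86 in PC-3 Ctrl cells and 3.11 in 22Rv1 Ctrl cells, at least 7.72-fold and 3.12-fold higher on the same basis. KRT16 read 8.86 in PC-3 Ctrl cells and 5.24 in 22Rv1 Ctrl cells, a difference of 3.62 as deposited and 1.91 when quantile normalized. On the shCD267 arrays the same genes differed between PC-3 and 22Rv1 by -0.84, 0.37 and 0.36.

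A difference held on both construct pairs for KRT8, lower in PC-3 cells, and KRT83, higher in PC-3 cells, or 1 of 45 in each direction where 4.34% of all genes were lower and 15.2% higher. On the quantile-normalized values KRT18 joined KRT8, so 2 were lower and 1 higher, where 9.55% and 10.1% of all genes were. KRT83, a type II keratin of the hair cortex, read 5.33 and 5.18 in PC-3 cells with shCD267 and Ctrl, just above the reference, and 3.57 and 3.01 in 22Rv1 cells with shCD267 and Ctrl, below it. Against the reference its difference on the shCD267 arrays was bounded only at 1.02-fold, and the type II hair keratins are close in sequence, so which of them its probes read was not tested. The constructs are not replicates of a line, and the plot of line differences shows how few keratins lie outside 2-fold on both axes.

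**Figure D4:**
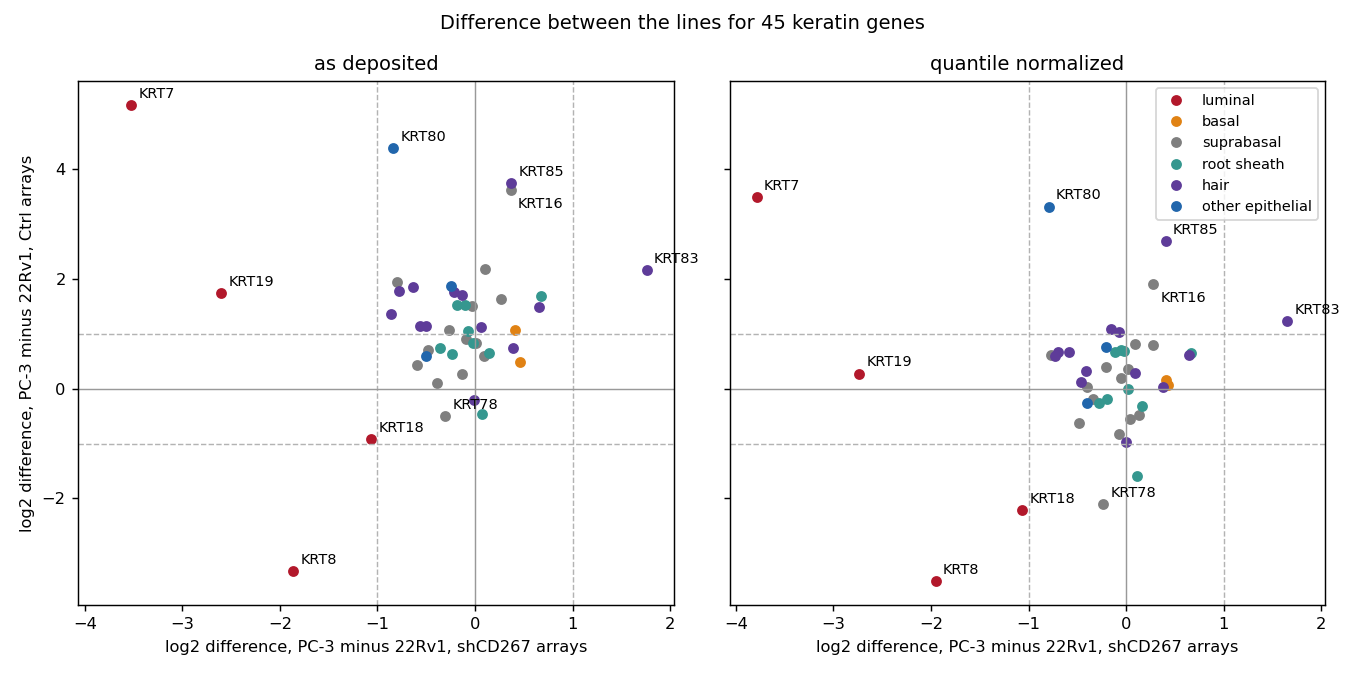
Log2 difference, PC-3 minus 22Rv1, of the 45 keratins on the shCD267 arrays (horizontal) and on the Ctrl arrays (vertical), as deposited and when quantile normalized, coloured by class, with dashed lines at 2-fold. KRT8 is lower in PC-3 cells on both axes, whereas KRT7 is at -3.52 on the shCD267 arrays and at 5.17 on the Ctrl arrays as deposited.

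Several genes that anchor keratin filaments were far higher in PC-3 than in 22Rv1 cells. Of 21 measured genes of desmosomes and hemidesmosomes, 9 were higher by at least 2-fold in PC-3 than in 22Rv1 cells and 2 lower on both construct pairs as deposited, and 8 and 3 when quantile normalized. The shares of all genes were 15.2% higher and 4.34% lower as deposited and 10.1% and 9.55% when quantile normalized. ITGA6, the integrin subunit of hemidesmosomes, read 13.62 and 13.76 in PC-3 cells with shCD267 and Ctrl, against 5.99 and 4.44 in 22Rv1 cells with shCD267 and Ctrl. DSC3, a desmosomal cadherin, read 12.26 and 11.67 in PC-3 cells with shCD267 and Ctrl, against 3.87 and 3.42 in 22Rv1 cells with shCD267 and Ctrl. PLEC, which links filaments to hemidesmosomes, read 11.65 and 12.02 in PC-3 cells with shCD267 and Ctrl, against 7.58 and 6.36 in 22Rv1 cells with shCD267 and Ctrl. In each of these 3 genes the PC-3 values lay above the 22Rv1 values on both constructs. With shCD267 in PC-3 cells 0 of 21 were higher and 1 lower as deposited, where 5.76% of all genes were higher and 4.69% lower. When quantile normalized PKP2 reached 1.02, and 5.87% of all genes were higher and 4.25% lower. The gene that was lower on both scales was PKP1, a plakophilin of desmosomal plaques, at 9.16 in PC-3 shCD267 cells and 10.39 in PC-3 Ctrl cells, and it was also higher in PC-3 than in 22Rv1 cells, at 5.74 in 22Rv1 shCD267 cells and 4.11 in 22Rv1 Ctrl cells. In 22Rv1 cells 14 of 21 passed 2-fold upward and 0 downward with shCD267 as deposited, whereas 5 were higher and 4 lower when quantile normalized, with a median of 1.21 as deposited and 0.08 on the normalized values. Of all genes 58.3% were higher and 2.01% lower as deposited, with a median of 1.22, and 13.3% and 15.5% when quantile normalized.

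Among 14 measured genes of other intermediate filaments, 4 were higher by at least 2-fold in PC-3 than in 22Rv1 cells and 1 lower on both construct pairs as deposited, and 3 and 1 when quantile normalized, beside the same shares of all genes as for the attachment genes. VIM, the mesenchymal filament protein vimentin, read 14.76 and 15.47 in PC-3 cells with shCD267 and Ctrl, against 6.50 and 5.90 in 22Rv1 cells with shCD267 and Ctrl. NEFL, the light neurofilament subunit, read 11.10 and 11.74 in PC-3 cells with shCD267 and Ctrl, against 4.11 and 3.41 in 22Rv1 cells with shCD267 and Ctrl. Vimentin and NEFL were high in the line in which KRT8 was lower, whereas NEFH of the same list was lower in that line. A relation of these genes to KRT8 was not tested. NES, the progenitor filament protein nestin, moved with shCD267 in the same directions as KRT7 and KRT80. It read 8.72 in PC-3 shCD267 cells and 10.31 in PC-3 Ctrl cells, and 8.49 in 22Rv1 shCD267 cells and 5.06 in 22Rv1 Ctrl cells, differences of -1.60 in PC-3 cells and of 3.43 as deposited and 1.86 when quantile normalized in 22Rv1 cells. NEFH, the heavy neurofilament subunit, read 9.75 in 22Rv1 shCD267 cells and 6.40 in 22Rv1 Ctrl cells, a difference of 3.34 as deposited and 1.59 when quantile normalized, and it was dim in PC-3 cells at 3.87 with shCD267 and 4.26 with Ctrl. Of the list 2 were at least 2-fold higher and 2 lower with shCD267 in PC-3 cells, where 5.76% of all genes were higher and 4.69% lower as deposited. In 22Rv1 cells 8 passed upward and 0 downward with shCD267 as deposited (3 and 1 when quantile normalized). The 8 of 14 lay close to the 58.3% of all genes that were higher there as deposited, and when quantile normalized 13.3% of all genes were higher and 15.5% lower.

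The epithelial transcription and splicing factors, 14 measured, differed between the lines more often downward than upward in PC-3 cells, with 5 lower and 2 higher on both construct pairs as deposited and 8 lower and 2 higher when quantile normalized. Of all genes 4.34% were lower and 15.2% higher as deposited, and 9.55% and 10.1% when quantile normalized. ESRP1, a splicing factor of epithelial cells, read 4.72 and 4.67 in PC-3 cells with shCD267 and Ctrl, against 13.72 and 12.62 in 22Rv1 cells with shCD267 and Ctrl. GRHL2, a transcription factor that keeps epithelial identity, read 4.58 and 5.56 in PC-3 cells with shCD267 and Ctrl, against 13.57 and 12.06 in 22Rv1 cells with shCD267 and Ctrl. Both were near the dim-probe reference in PC-3 cells, in which the luminal keratins were far above it. TFAP2C, an AP-2 factor, ran the other way, at 11.19 and 12.53 in PC-3 cells with shCD267 and Ctrl against 3.98 on both 22Rv1 arrays. ELF5, an ETS factor of glandular epithelium, read 2.72 and 3.92 in PC-3 cells with shCD267 and Ctrl, against 9.49 and 9.92 in 22Rv1 cells with shCD267 and Ctrl. With shCD267 in 22Rv1 cells, as deposited, 5 of 14 were higher while 4 were lower, and 1 was higher while 9 were lower when quantile normalized, with medians of -0.06 and -1.30 against 1.22 and -0.06 over all genes, of which 58.3% were higher and 2.01% lower as deposited and 13.3% and 15.5% when quantile normalized. In PC-3 cells 0 were higher and 2 lower with shCD267, TFAP2C and ELF5, and ELF5 was below the dim-probe reference on both PC-3 arrays. The shares of all genes in that comparison were 5.76% higher and 4.69% lower as deposited.

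**Figure D5:**
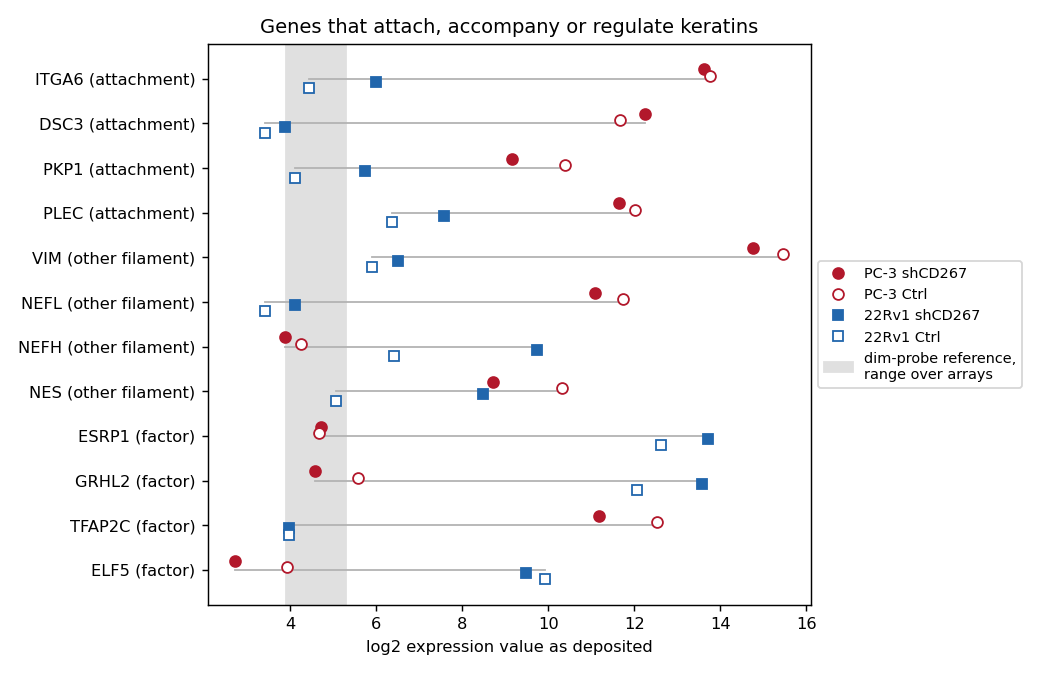
Log2 expression values as deposited of 4 genes each of the attachment, other filament and transcription or splicing factor lists, chosen by the size of their differences. Symbols and the grey band are as in the plot of keratin levels. ITGA6, DSC3, VIM, NEFL and TFAP2C are high in PC-3 cells, and ESRP1, GRHL2 and ELF5 are high in 22Rv1 cells.

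The genes of the cornified envelope and of filament bundling, 14 measured, which act with keratins in the upper epidermis, were mostly dim. In PC-3 cells 0 of 14 passed 2-fold with shCD267 in either direction, where 5.76% of all genes were higher and 4.69% lower as deposited. In 22Rv1 cells 4 passed upward and 0 downward with shCD267 as deposited, and 0 upward and 1 downward when quantile normalized. The 4 of 14 lay below the 58.3% of all genes that passed upward as deposited, and 15.5% of all genes passed downward when quantile normalized. CNFN, a component of the cornified envelope, read 7.15 in PC-3 Ctrl cells and 4.43 in 22Rv1 Ctrl cells, a difference of 2.72 as deposited and 1.28 when quantile normalized.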

How the data were processed

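The values used are the log2 expression values that the authors deposited for the probe sets of 4 arrays. According to the study's methods, Clariom D arrays were read with Affymetrix Expression Console and with Transcriptome Analysis Console. RMA and Partek appear besides Affymetrix Expression Console in the submitters' processing notes. Program versions and the genome build are not given in the sources used here, so the promoter coordinates are those of the RefSeq table for GRCh38.p14 and were not matched to probes. The platform annotation gave 1 symbol to 17709 of 24351 probe sets and none to 6642, and for 20 genes with several probe sets the one with the highest mean was taken. Of 55 protein-coding keratin genes in RefSeq, 10 (KRT6A, KRT6B, KRT12, KRT15, KRT17, KRT20, KRT34, KRT81, KRT82 and KRT86) were not analysed here.

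Differences are log2 values of shCD267 minus Ctrl or of PC-3 minus 22Rv1, called at 2-fold, with Python 3.11.15, pandas 2.3.3, numpy 2.4.6 and statsmodels 0.14.6. The calls were tried on simulated data. Where a simulated array was shifted, only the quantile-normalized and loess values were required to recover the planted changes with few false calls. The simulation therefore does not vouch for calls on the deposited scale that use the 22Rv1 Ctrl array. A bound on a fold sets the dim array at its dim-probe reference. A line difference was called where both construct pairs passed in the same direction. Values on every array are given for keratins above the dim-probe reference on at least 1 array of a comparison that passed 2-fold on the deposited and the quantile-normalized scale, and for the luminal and basal keratins. From each of 8 other lists up to 4 genes with the largest summed differences that passed the same rule were taken; KRT33A, KRT35, KRT71, KRT75, KRT76, KRT78, KRT79, KRT39, TMPRSS2, KLK2 and PKP2 were named after their values were seen. The members and lists were chosen with earlier results of these data known. The alternatives were quantile normalization, centring on a common median, loess of the difference on the level (span 0.4), thresholds of 1.5-fold and 3-fold, leaving out members dim on both arrays of a pair, averaging the probe sets of a gene, and other references for dim probes.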

Additional observations from a re-analysis of the deposited data

Results flagged for a closer look

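The change with shCD267 ran in opposite directions in the 2 lines for 3 keratins, and this difference between the lines was not tested, since each condition has 1 array. For KRT7 the change in 22Rv1 cells exceeded that in PC-3 cells by 8.69 on the log2 scale as deposited and by 7.28 when quantile normalized. For KRT80 the excess was 5.22 as deposited and 4.11 when quantile normalized, with the 22Rv1 Ctrl value below the dim-probe reference. For KRT85 it was 3.38 and 2.29, with both 22Rv1 values below that reference.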

How the results depend on the processing

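No paired analysis was possible because each condition has 1 array, and for the same reason no replicate could be left out. The 5 keratins past 2-fold with shCD267 in PC-3 cells became 12 at 1.5-fold and 1 at 3-fold. The 20 in 22Rv1 cells became 12 when quantile normalized, 11 after loess, 31 at 1.5-fold and 10 among members readable on at least 1 array of the pair. After centring on a common median the count was 21, but 4 were higher and 17 lower, since centring subtracts 1 shift from genes of every level. The 5 between the lines on the shCD267 arrays became 13 at 1.5-fold. The 27 on the Ctrl arrays became 11 when quantile normalized (7 higher and 4 lower), 15 after centring (4 and 11), 9 after loess (5 and 4), 16 at 3-fold and 14 among readable members. The 18 keratins above the dim-probe reference became 12 at the 99th percentile of olfactory receptor genes and 7 at the array median.

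Signs turned with at least 1 of the 2 values past 2-fold for 4 named keratins, and the cause was not tested. With shCD267 in 22Rv1 cells KRT18 was at -1.20 when quantile normalized, -1.62 after centring and -1.08 after loess, and KRT14 was at -1.03 and KRT83 at -1.08 after centring. Between the lines on the Ctrl arrays KRT14 was at -1.11 and KRT5 at -0.53 after centring. Of 208 alternative values of 13 named keratins, 170 kept their sign and their side of 2-fold, 21 no longer passed, 4 passed newly, 7 turned as given above and 6, of KRT5 and KRT83, turned with both values under 2-fold. The changes of KRT7, KRT19 and KRT80 in 22Rv1 cells and of KRT7, KRT8, KRT80 and KRT85 in PC-3 cells passed 2-fold under each scaling. Dim values limit the hair and root sheath keratins.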

Other observations

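The following genes were chosen after their values were seen. Of 14 measured epithelial transcription and splicing factors, 4 were at least 2-fold lower with shCD267 in 22Rv1 cells on both scales, and 5 others were higher as deposited. The shares of all genes were 58.3% higher and 2.01% lower as deposited, and 13.3% and 15.5% when quantile normalized. The part of these factors in the rises of KRT7 and KRT19 was not tested. ELF3, an ETS factor of epithelial cells, read 6.91 in 22Rv1 shCD267 cells and 9.90 in 22Rv1 Ctrl cells, a difference of -3.0 as deposited and -4.66 when quantile normalized. EHF, a related ETS factor, read 10.67 in 22Rv1 shCD267 cells and 12.64 in 22Rv1 Ctrl cells, a difference of -1.97 as deposited and -3.24 when quantile normalized. SOX9, a factor of progenitor and duct cells, read 6.92 in 22Rv1 shCD267 cells and 10.47 in 22Rv1 Ctrl cells, a difference of -3.55 as deposited and -5.18 when quantile normalized. KLF4, a factor of differentiating epithelia, read 5.48 in 22Rv1 shCD267 cells and 7.37 in 22Rv1 Ctrl cells, a difference of -1.89 as deposited and -3.66 when quantile normalized. In PC-3 cells ELF3, EHF, SOX9 and KLF4 differed by 0.61, 0.93, 0.69 and -0.81, short of 2-fold, and ELF3 was below the dim-probe reference there.

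Other filament genes also passed 2-fold in PC-3 cells. SYNM, the filament protein synemin, read 11.72 in PC-3 shCD267 cells and 9.84 in PC-3 Ctrl cells, a difference of 1.88. BFSP1, a filament protein best known from the lens, read 7.67 in PC-3 shCD267 cells and 5.32 in PC-3 Ctrl cells, a difference of 2.35. LMNB1, a nuclear lamin, read 9.54 in PC-3 shCD267 cells and 10.68 in PC-3 Ctrl cells, a difference of -1.14, and it was higher with shCD267 in 22Rv1 cells by 2.95 as deposited and 1.31 when quantile normalized.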
